A study of Mus musculus with 18 samples.

Results

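The nuclear genes for subunits of the mitochondrial respiratory chain and ATP synthase were followed through 18 RNA-seq libraries of IMCD3 cells, which are cultured mouse kidney cells derived from the inner medulla's collecting duct. Members were chosen by name and level, with earlier results of these data known. The names start with Nduf and continue with a, b, c, s or v and a digit, or are Sdha to Sdhd. Others start with Uqcr, with Cox, a digit from 4 to 8 and a letter, or with Atp5. Of 90 names that matched, 6 were pseudogene names ending in -ps, with or without a further digit, and 6 did not reach 1 TPM (a read level corrected for transcript length and library total) in 3 or more libraries. The remaining 78 are members, out of 16718 genes that passed the same level rule and 49845 names in the files. Cox7a1 and Ndufa4l2 met the level rule only through some of the groups, as given below. They comprise 35 genes of complex I, 4 of complex II, 8 of complex III, 14 of complex IV and 17 of complex V. Ndufa4 and Ndufa4l2 are counted with complex IV, where the Ndufa4 protein is found. Atp5sl and Atp5s match by name only: Atp5sl is known as an assembly factor of complex I and is also called Dmac2.

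Wild-type IMCD3 cells and lines labelled as Ift140 knockout and Dync2h1 knockout were kept static or exposed to fluid shear of 0.7 dyne/cm2 for 3 h, with 3 libraries in each of the 6 groups. Ift140 is a subunit of the complex that carries cargo back down the cilium, and Dync2h1 is the heavy chain of the motor that pulls it. All 18 libraries, controls included, come from the strain background Tg(SV40E)bri/7, which carries the SV40 early region as a transgene, from cells of passage 10 to 15 grown in microslide chambers, and from total RNA. The labels do not state whether replicates were separate cultures or whether a knockout line is a single clone, so the p-values measure only the spread between these libraries.

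The respiratory chain passes electrons from NADH (complex I) or succinate (complex II) through ubiquinone, complex III and cytochrome c to oxygen at complex IV, and the proton gradient built on the way drives ATP synthase, complex V. Most subunits are encoded in the nucleus and imported, while a few core subunits of complexes I, III, IV and V are encoded in mitochondrial DNA, so both genomes must be expressed for assembly. Nuclear respiratory factors, ETS family factors and YY1 are known to bind promoters of many of the nuclear genes, and in kidney the chain supplies the ATP for salt transport.

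Promoter windows of 300 bases, 250 before and 50 after the RefSeq transcription start (GRCm38.p6), were found for 64 of the 78 members and for 27025 genes in all. Motifs were searched on both strands as exact letters, and matches to different motifs may overlap. GCATGCGC, the core bound by NRF1, was present for 10 members (15.6%) and for 3.05% of all genes. CCGGAAG, bound by ETS factors, was present for 16 members (25.0%) and 9.93% of all genes. AAGATGGC, bound by YY1, was present for 10 members (15.6%) and 3.19% of all genes. CCAAT (28 members, 43.8%, against 41.1% of all genes) and the GC box GGGCGG (24 members, 37.5%, against 38.2%) were about as frequent among members as among all genes. A match is a description of letters, not of a bound site. The 27025 genes were not limited to those that passed the level rule, which all members did, so they also differ from members in expression. The stretches before the start of Atp5l, Ndufa6 and Ndufs5 are shown because these 3 genes passed the test in 2 or more comparisons and at least 200 bases before their start lie outside any annotated exon. Of 8 members called in 2 or more comparisons, 6 had a window and 3 of these met the second condition. All 3 were called higher in static Dync2h1 knockout cells, and that call counted toward the choice. Ndufa6 was also called lower in the static and the flow comparison of the Ift140 knockout. They are written 5′ to 3′ on the gene's own strand, with matches to the motifs in capitals. The Atp5l stretch lies at chr9:44920752-44920992 (minus strand, 241 bases) and holds CCAAT 248, the NRF1 core 240 and the ETS motif 212 bases before the start. The Ndufa6 stretch lies at chr15:82354323-82354541 (minus strand, 219 bases) and holds the NRF1 core 83 and CCAAT 52 bases before the start. The Ndufs5 stretch lies at chr4:123718203-123718436 (minus strand, 234 bases) and holds none of the motifs.
Atp5l: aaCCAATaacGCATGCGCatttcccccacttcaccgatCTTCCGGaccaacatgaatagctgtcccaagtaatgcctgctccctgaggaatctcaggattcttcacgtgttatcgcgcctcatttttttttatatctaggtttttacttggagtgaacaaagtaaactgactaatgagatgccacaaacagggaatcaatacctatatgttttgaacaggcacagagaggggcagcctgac
Ndufa6: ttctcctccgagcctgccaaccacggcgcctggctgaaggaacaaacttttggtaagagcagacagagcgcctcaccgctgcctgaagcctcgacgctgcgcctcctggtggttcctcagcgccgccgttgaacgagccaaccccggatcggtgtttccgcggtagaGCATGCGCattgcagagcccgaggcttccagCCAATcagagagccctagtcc
Ndufs5: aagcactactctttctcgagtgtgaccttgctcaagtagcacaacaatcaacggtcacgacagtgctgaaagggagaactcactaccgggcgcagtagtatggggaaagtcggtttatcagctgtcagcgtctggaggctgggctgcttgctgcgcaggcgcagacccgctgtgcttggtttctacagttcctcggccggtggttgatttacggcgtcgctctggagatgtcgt

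Values below are scaled TPM, the deposited TPM divided by a factor per library, and a change is a difference of log2(scaled TPM + 1) between group means, with its standard error (SE). A member was called where limma's adjusted p, taken over all 16718 genes, was under 0.05. An exact test of 3 libraries against 3 cannot go below p = 0.1, so each call rests on the spread shared across genes and groups.

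All the complexes were expressed in every library, and complex V genes took 39.3% of the members' summed TPM, complex I genes 29.2%, complex IV genes 20.6%, complex III genes 8.045% and complex II genes 2.875%. The median member had a mean of 86.1 TPM over the 18 libraries. Per length, the most abundant member was Atp5b, the catalytic beta subunit of ATP synthase, at 1320 TPM, and the lowest of complex V was Atp5s at 4.52 TPM. In complex I, levels ran from 17.3 TPM for Ndufa11, an accessory subunit of the membrane arm, to 290.4 TPM for Ndufv1, which holds the FMN that accepts electrons from NADH. The 4 complex II genes lay close together, from Sdhb, the iron-sulfur subunit, at 64.8 TPM to Sdhc, a membrane anchor, at 83.0 TPM. Complex III ran from Uqcrq at 34.1 TPM to Uqcr10 at 152.9 TPM, both small subunits. Complex IV had the widest range, from Ndufa4l2 at 0.753 TPM to Cox4i1 at 449.1 TPM.

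Where a subunit has isoforms used in different tissues, the widely expressed isoform carried nearly all the TPM. Cox4i1 ranged from 336 to 566 TPM over the libraries, whereas Cox4i2, the isoform known from lung and from low oxygen, reached at most 0.653. Means were 138.0 TPM for Cox6a1, 137.7 for Cox6b1, 170.5 for Cox7a2 and 285.8 for Cox8a, and Cox6a2, Cox6b2, Cox8b and Cox8c, known from muscle or testis, were below the 1 TPM rule, with Cox8c listed at 0 in all 18 libraries. Cox7a2l, a relative of Cox7a2 that takes part in respiratory supercomplexes, averaged 123.3 TPM. Cox7a1, the heart and muscle isoform, averaged 2.29 TPM and lay just inside the rule, with 12 libraries at 1 TPM or more, and Ndufa4l2 was inside with 5. The 12 were all the wild-type and Ift140 knockout libraries, and the 5 were all flow libraries. Cox7b2 lay just outside it, with 0.979 TPM in its highest library. Of the 3 genes that encode the same mature c subunit of the ATP synthase rotor, Atp5g3 averaged 147.2 TPM, Atp5g1 32.7 and Atp5g2 12.1. Other genes that share sequence with Atp5g2 averaged 207.2 TPM in sum and those of Atp5g1 92.0, while Atp5g3 has no such gene. The order of the 3 is therefore uncertain.

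**Figure D1:**
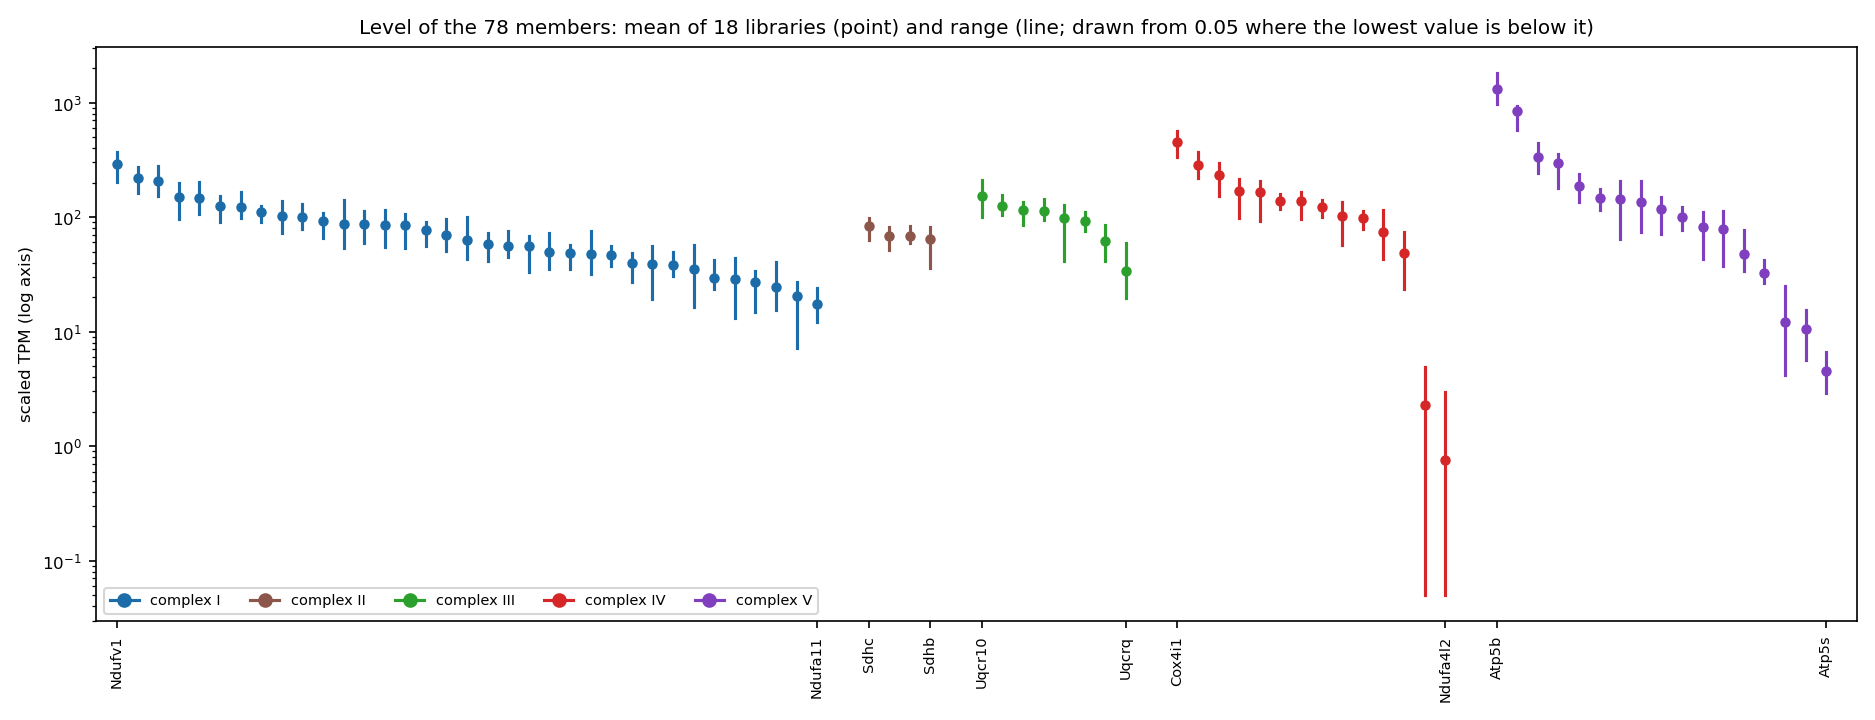
Mean (point) and range over 18 libraries (line) of each of the 78 members by complex, in order of level, on a log axis in scaled TPM, with the highest and lowest member of each complex named; a line is drawn from 0.05 where the lowest library is below that. Most members lie near the median of 86.1 TPM, Atp5b is highest at 1320 TPM, and Ndufa4l2 and Cox7a1 are the low members with wide ranges.

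Across the 6 groups, the ratio of the highest to the lowest group mean had a median of 1.49 over the 78 members. It was under 1.5 for 41 and over 2 for 7, and was not taken over all genes. Those 7, chosen by that ratio, were Ndufa4l2 (17.3), Cox7a1 (11.1), Ndufa5 (2.69), Atp5g2 (2.48), Atp5l (2.18), Uqcrq (2.13) and Ndufs6 (2.11), and Ndufa4l2 and Cox7a1 are also the lowest members of complex IV. The summed TPM of all members was 10220 ± 250.9 (SD, n = 3) in wild-type static cells and 9696 ± 154.9 in wild-type flow cells. It was 9210 ± 494.4 in Ift140 knockout static cells and 8829 ± 1437 in Ift140 knockout flow cells. It was 10060 ± 118.2 in Dync2h1 knockout static cells and 11250 ± 201.8 in Dync2h1 knockout flow cells. Only the Dync2h1 knockout flow libraries (11040 to 11450) lay above every other library, which ranged from 7219 to 10470. Their complex III sum (953.5 ± 7.85) and complex V sum (4630 ± 25.9) also stood above all other libraries. These separations depend on the scaling. The 3 libraries had the smallest scaling factors (0.8897, 0.9381 and 0.9364, as against 0.9437 to 1.129 for the others). On the TPM as deposited, Dync2h1 knockout static replicate 3 exceeded them in all 3 of these sums. No p-value is given for sums over chosen genes, and in bulk RNA fewer cells of a type and less RNA per cell cannot be told apart.

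**Figure D2:**
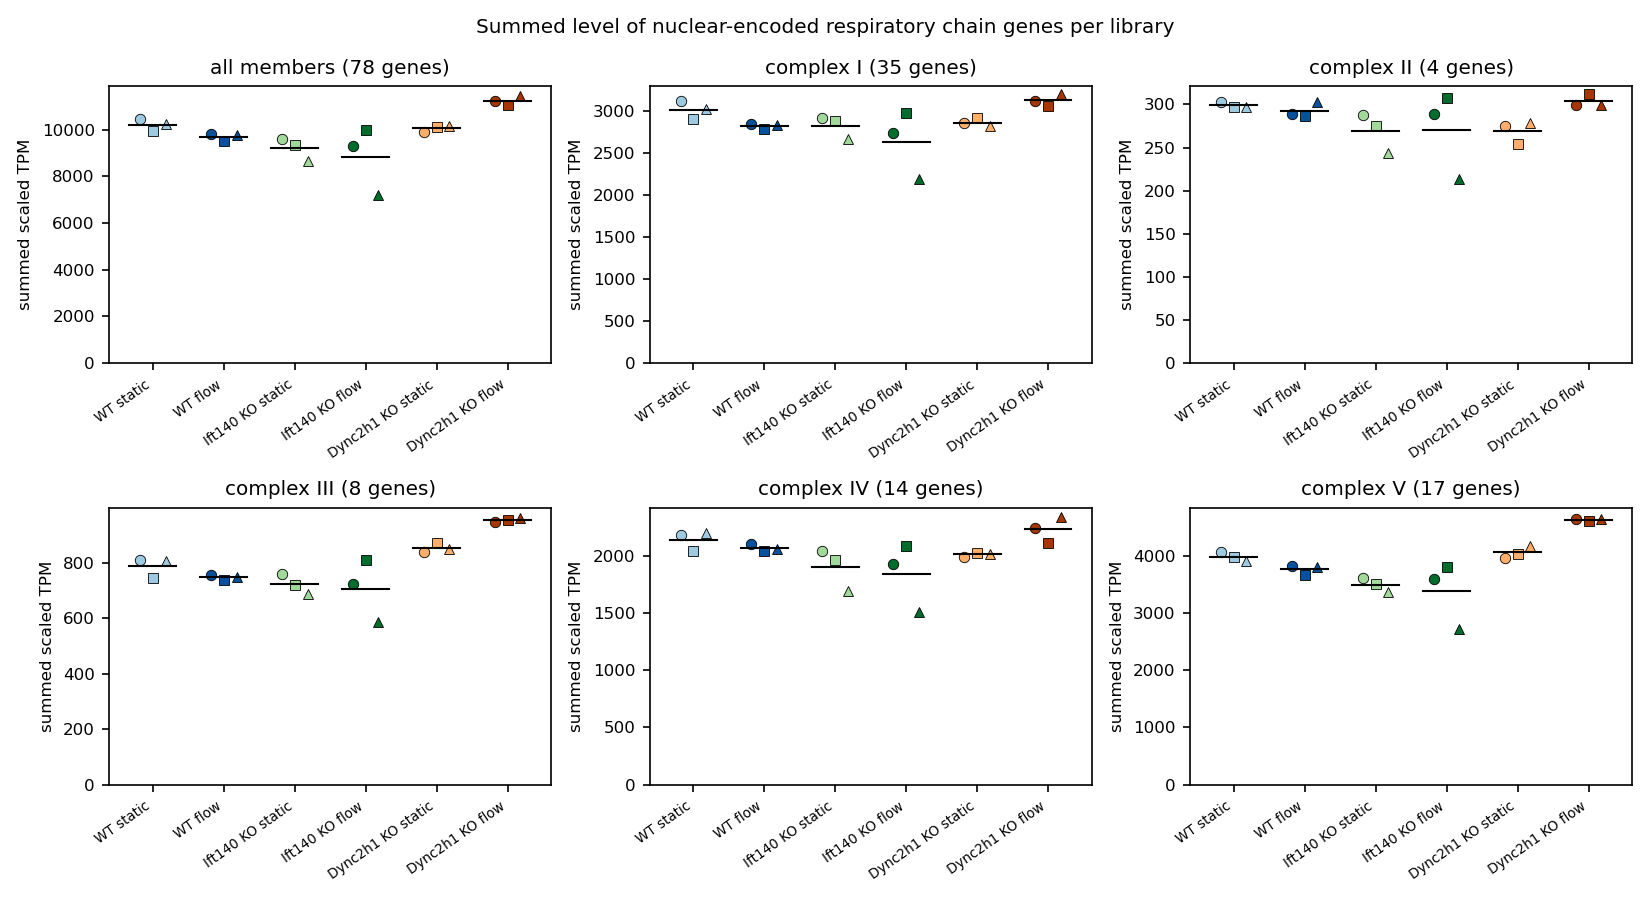
Summed scaled TPM per library of all 78 members and of each complex, by group; circles, squares and triangles are replicates 1, 2 and 3 and the line is the group mean. With this scaling the 3 Dync2h1 knockout flow libraries (11040 to 11450 over all members) are highest, which does not hold on the TPM as deposited. Replicate 3 of the Ift140 knockout is the lowest of its group in both conditions (8658 static, 7219 flow).

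Some libraries stood apart. Over the members, the library labelled Ift140 knockout flow replicate 3 had 25 genes more than 0.5 log2 units below the mean of the other 2 libraries of its group, Ift140 knockout static replicate 3 had 15, and Ift140 knockout flow replicate 2 had 13 above. Ift140 itself was 13.9 to 19.6 TPM in the 12 libraries of the other lines and 6.26 to 8.53 in 5 libraries of the Ift140 knockout, but 15.4 in the library labelled Ift140 knockout flow replicate 3, which goes against that label. Dync2h1 was 7.07 to 15.4 TPM in the Dync2h1 knockout and 22.9 to 45.4 elsewhere. The epithelial genes Krt8, Krt18, Cdh1 and Epcam and the duct genes Hoxb7 and Pax2 were expressed, while the water channel genes Aqp2 (at most 0.0746 TPM) and Aqp3 (at most 0.637), the vasopressin receptor gene Avpr2 (at most 0.92) and the factor gene Tfap2b (at most 0.0107) were near 0. The 12 collecting duct epithelium markers summed to 2058 ± 57.9 TPM in wild-type static and 3178 ± 38.2 in wild-type flow libraries, 2934 ± 155.1 and 3708 ± 362.6 in the Ift140 knockout, and 2712 ± 50.6 and 3847 ± 112.0 in the Dync2h1 knockout. They moved with the groups compared below, and their part in the results was not tested. Summed markers of other cells ranged over the libraries from 10.8 to 22.4 TPM for leukocytes (5 genes, Cd3e at 0), 1.83 to 5.59 for proximal tubule, 0.303 to 4.48 for fibroblasts, 0.0698 to 2.17 for thick limb and distal tubule, 0 to 1.42 for intercalated cells and 0.0297 to 0.999 for endothelium. The deposited TPM keeps no read depth, so depth per library is unknown.

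The first question was how the members differ between static knockout and static wild-type cells. The comparisons of the 2 knockouts use the same 3 wild-type static libraries, so their values are set side by side and no overlap between them is counted as a result. In Dync2h1 knockout static cells, 8 members were higher and 11 lower. Among all genes 13.5% were higher and 14.1% lower (27.6% in all), and the 19 called members are 24.4% of 78. Among the 3669 genes averaging at least 50 TPM, which members resemble more closely in level, 37.1% were called. The median member changed by 0.01 log2 units, as against -0.01 for all genes, with 41 members above 0 and 37 below. In Ift140 knockout static cells, 4 members were higher and 14 lower, 23.1% in all. Among all genes 8.97% were higher and 9.08% lower (18.1% in all), and 14 of the 18 called members were lower, where the calls over all genes split nearly evenly. Of the genes averaging at least 50 TPM 24.0% were called there. The median member there changed by -0.10 and 58 of 78 lay below 0, against a median of -0.004 for all genes. Groups did not overlap for 48 of the 78 members in the Dync2h1 comparison, beside 47.6% of all genes. In the Ift140 comparison they did not overlap for 39 of the 78, beside 38.3% of all genes. Both member shares are larger than those of all genes, and none was taken for genes averaging at least 50 TPM. Leaving out 1 library at a time gave 14 to 16 called members for the Dync2h1 knockout (21.3% to 23% of all genes). For the Ift140 knockout it gave 9 to 13 (12.3% to 15.2% of all genes). The count was 9 without Ift140 knockout static replicate 3, 10 without wild-type static replicate 1 and 11 without wild-type static replicate 2.

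**Figure D3:**
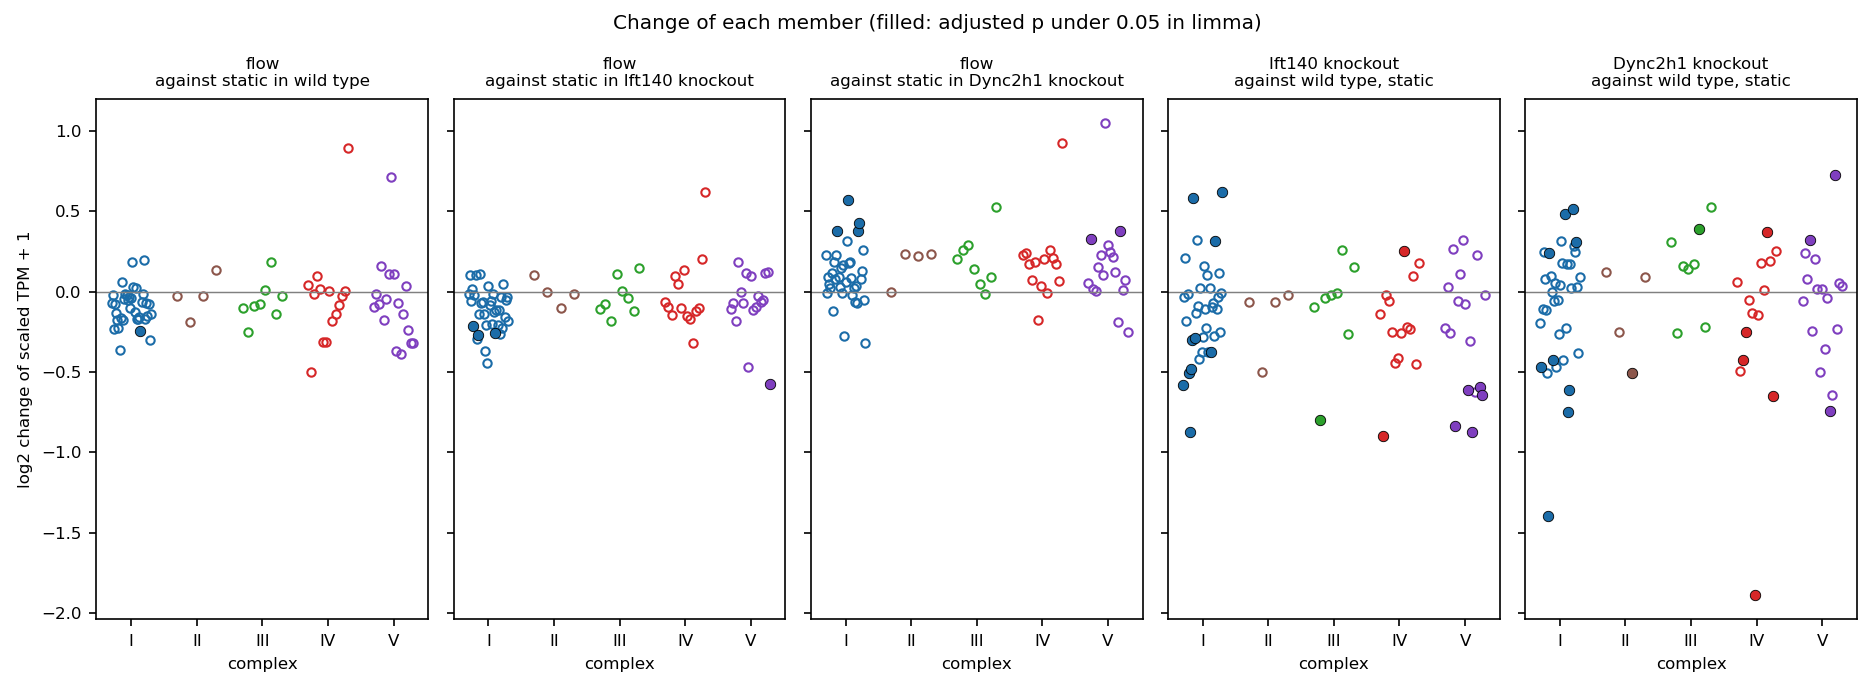
Change of each of the 78 members in log2(scaled TPM + 1) between group means, by complex, in the 5 comparisons; filled points passed at adjusted p under 0.05. The static Dync2h1 comparison has 8 filled points above 0 and 11 below, the static Ift140 comparison 4 and 14, and the 3 flow comparisons have few: 1 and 4 below 0 and 6 above 0.

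In complex I, the lowest-p members of the Dync2h1 comparison were subunits of the peripheral arm, the part that holds the iron-sulfur clusters. Ndufa5 (chr6:24518666-24528013, GRCm38), an accessory subunit of that arm, measured 57.0, 53.1 and 52.6 TPM in wild-type static cells and 16.5, 22.9 and 21.2 in Dync2h1 knockout static cells. The groups lay far apart, and the change was -1.39 (SE 0.15, limma adjusted p = 4.62e-06). Ndufs1, the largest iron-sulfur subunit (chr1:63143596-63176833), measured 201, 182 and 189 TPM against 115, 109 and 114, a fall of 0.75 (SE 0.10, adjusted p = 3.83e-05). Both kept their call in each of the 15 alternatives run. In Ift140 knockout static cells Ndufa5 was 48.0, 38.7 and 30.9 TPM (-0.48, adjusted p = 0.0344) and Ndufs1 136, 154 and 149 (-0.38, adjusted p = 0.0143), both below every wild-type static library. The Ndufa5 call there was lost in 9 of 16 alternatives, leaving out Ift140 knockout static replicate 3 (-0.32, adjusted p = 0.163), replicate 2 or any wild-type static library among them, and the Ndufs1 call was lost without wild-type static replicate 1 (adjusted p = 0.065) or Ift140 knockout static replicate 1 (adjusted p = 0.062). For both genes the Dync2h1 knockout libraries were the lowest of the static libraries.

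Other complex I genes went the other way in the same cells. Ndufs5 (chr4:123712710-123718202), a small accessory subunit of the membrane arm, measured 37.6, 34.9 and 39.6 TPM in wild-type static cells and 50.2, 54.4 and 56.8 in Dync2h1 knockout static cells, a rise of 0.51 (SE 0.10, adjusted p = 0.00109). It measured 48.5, 43.0 and 48.5 TPM in Ift140 knockout static cells, a rise of 0.31 (adjusted p = 0.0399) that was no longer called when any library of that comparison other than Ift140 knockout static replicate 2 was left out (0.27 to 0.35, adjusted p = 0.051 to 0.14). Ndufb9 (chr15:58933756-58939488), of the membrane arm, measured 176, 173 and 168 TPM against 236, 245 and 241 in the Dync2h1 knockout, a rise of 0.48 (SE 0.09, adjusted p = 0.0011), and 186, 192 and 179 in the Ift140 knockout, which was not called. Ndufs8, a core iron-sulfur subunit, rose by 0.31 in the Dync2h1 knockout (adjusted p = 0.00499). Complex I genes moved in both directions: 4 were called higher and 5 lower in the Dync2h1 knockout, and 3 higher and 7 lower in the Ift140 knockout, of 35. These are 25.7% and 28.6%, beside 27.6% and 18.1% of all genes.

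Ndufa7 and Ndufv3, both of the peripheral arm, were the members with the lowest p that rose in the Ift140 comparison. Ndufa7 (chr17:33824572-33838317) measured 98.0, 101 and 107 TPM in wild-type static cells, 165, 156 and 141 in Ift140 knockout static cells and 103, 121 and 104 in Dync2h1 knockout static cells. The Ift140 libraries lay above all the others, and the change against wild type was 0.58 (SE 0.11, adjusted p = 0.00125). Ndufv3 measured 46.3, 42.5 and 38.2 TPM in wild-type static cells and 67.8, 68.4 and 59.9 in Ift140 knockout static cells, a rise of 0.62 (SE 0.15, adjusted p = 0.0093). Both kept their call in all 16 alternatives run. Ndufa2, an accessory subunit of the peripheral arm, fell by 0.51 in the Ift140 knockout (adjusted p = 0.0143), from 97.6, 95.8 and 101.7 TPM to 72.5, 70.4 and 64.2, and was not called without Ift140 knockout static replicate 3 (-0.46, adjusted p = 0.058). The other complex I members that passed were, named after their values were seen, Ndufa1, Ndufa3, Ndufa6 and Ndufa8 (lower, Ift140 knockout), Ndufa9 and Ndufa10 (lower, Dync2h1 knockout) and Ndufa6 (higher, Dync2h1 knockout). Ndufa6 measured 95.6, 85.8 and 83.7 TPM in wild-type static cells, 67.6, 69.3 and 77.8 in the Ift140 knockout (-0.30, adjusted p = 0.019) and 99.8, 108 and 106 in the Dync2h1 knockout (0.24, adjusted p = 0.04). Its Ift140 call was lost without wild-type static replicate 1 or Ift140 knockout static replicate 1 or 2, and its Dync2h1 call without any library but replicate 1 of either group. The Ift140 call of Ndufa8 (-0.29, adjusted p = 0.048) was lost in 13 of 16 alternatives, leaving out any single library of that comparison among them.

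Complex II had 0 of 4 members called in the static Ift140 comparison and 1 of 4 in the static Dync2h1 comparison. Complex III had 1 of 8 called in each. Among all genes 18.1% and 27.6% were called in these comparisons. Whether counts from so few members differ from those shares was not tested. Sdhc (chr1:171127165-171150603) measured 94.4, 86.7 and 98.2 TPM in wild-type static cells and 68.2, 62.9 and 64.4 in Dync2h1 knockout static cells, and fell by 0.51 (SE 0.12, adjusted p = 0.00443). It was the only complex II gene called in either static comparison. Uqcrfs1, the Rieske iron-sulfur protein of complex III (chr13:30540308-30545362), measured 75.6, 77.3 and 79.9 TPM against 96.8, 111 and 98.7 and rose by 0.39 (SE 0.09, adjusted p = 0.00404). Uqcr11, a small complex III subunit named after its values were seen, measured 127, 122 and 117 TPM in wild-type static cells and 82.4, 76.3 and 54.1 in Ift140 knockout static cells (-0.80, adjusted p = 0.0201). No other gene of complexes II and III was called in either static comparison.

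In complex IV, 1 of 14 members was higher and 1 lower in the Ift140 knockout (14.3%, beside 18.1% of all genes called). In the Dync2h1 knockout 1 was higher and 4 lower (35.7%, beside 27.6% of all genes). Cox5a (chr9:57521274-57532426), a matrix-side subunit, measured 63.3, 74.0 and 65.3 TPM in wild-type static cells, 42.7, 45.1 and 23.5 in Ift140 knockout static cells and 47.6, 46.8 and 48.4 in Dync2h1 knockout static cells. Both knockouts lay below wild type without overlap. The change was -0.90 (SE 0.22, adjusted p = 0.00875) in the Ift140 knockout and -0.49 in the Dync2h1 knockout, which did not pass (adjusted p = 0.105). Cox5b, its neighbour on the matrix side, measured 106, 106 and 113 TPM against 79.5, 78.8 and 82.5 in the Dync2h1 knockout and fell by 0.43 (adjusted p = 0.00126), while the Ift140 knockout had 113, 103 and 105. Cox7a1 (chr7:30184144-30186078) measured 3.77, 4.88 and 3.31 TPM in wild-type static cells and 0.540, 0.536 and 0 in Dync2h1 knockout static cells, where it was called lower (SE 0.25, adjusted p = 4.77e-05). At so low a level its change depends on the pseudocount and was -1.89 with 1 added, -3.55 with 0.1 and -0.74 with 5. Only wild-type and Ift140 knockout libraries had Cox7a1 at 1 TPM or more, so its Dync2h1 call is not independent of the level rule. Cox7c rose by 0.37 in the Dync2h1 knockout (adjusted p = 0.0309) and Cox7a2l by 0.25 in the Ift140 knockout (adjusted p = 0.0321). The Cox7a2l call was lost without any library of that comparison other than wild-type static replicate 1, at 0.20 to 0.27. Ndufa4 and Cox6a1, named by the isoform rule, fell by 0.65 (adjusted p = 0.0176) and 0.25 (adjusted p = 0.0234) in the Dync2h1 knockout. Leaving out single libraries ended these 3 Dync2h1 calls: that of Cox7c for any library but wild-type static replicate 3, that of Ndufa4 for any but wild-type static replicate 2 and Dync2h1 knockout static replicate 1, and that of Cox6a1 for any but wild-type static replicate 1 and Dync2h1 knockout static replicate 2.

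In complex V, 5 of 17 members were lower in the Ift140 knockout (29.4%, beside 18.1% of all genes called). In the Dync2h1 knockout 2 were higher and 1 lower (17.6%, beside 27.6% of all genes). Of the 5 lower in the Ift140 knockout, Atp5s matches by name only, and Atp5o and Atp5h lost their call when summed with copies, as given below. Atp5j2 (chr5:145183698-145192062), the f subunit of the membrane part, measured 207, 180 and 203 TPM in wild-type static cells, 119, 124 and 81.5 in Ift140 knockout static cells and 121, 111 and 118 in Dync2h1 knockout static cells. All 6 knockout libraries lay below the 3 wild-type libraries, with changes of -0.88 (SE 0.19, adjusted p = 0.00502) and -0.74 (SE 0.19, adjusted p = 0.00886). Atp5l, the g subunit (chr9:44912557-44920742), measured 36.0, 34.4 and 34.9 TPM in wild-type static cells and 53.3, 60.7 and 62.3 in Dync2h1 knockout static cells, a rise of 0.73 (SE 0.11, adjusted p = 0.000119). In the Ift140 knockout it measured 37.9, 36.1 and 51.1 TPM and was not called. Atp5o, the subunit that joins the catalytic head to the stator, measured 228, 236 and 211 TPM in wild-type static cells and 157, 156 and 135 in Ift140 knockout static cells (-0.59, SE 0.12, adjusted p = 0.00269). Atp5s, a coupling factor, measured 4.89, 6.34 and 4.70 TPM against 2.89, 3.11 and 3.03 (-0.64, SE 0.14, adjusted p = 0.00475). Atp5h and Atp5e, also lower in the Ift140 knockout, and Atp5d, higher in the Dync2h1 knockout, complete the complex V calls and were named after their values were seen. Atp5b itself measured 1206, 1191 and 1177 TPM in wild-type static cells, 1208, 1174 and 1269 in the Ift140 knockout and 1310, 1425 and 1491 in the Dync2h1 knockout, and was called in neither.

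**Figure D4:**
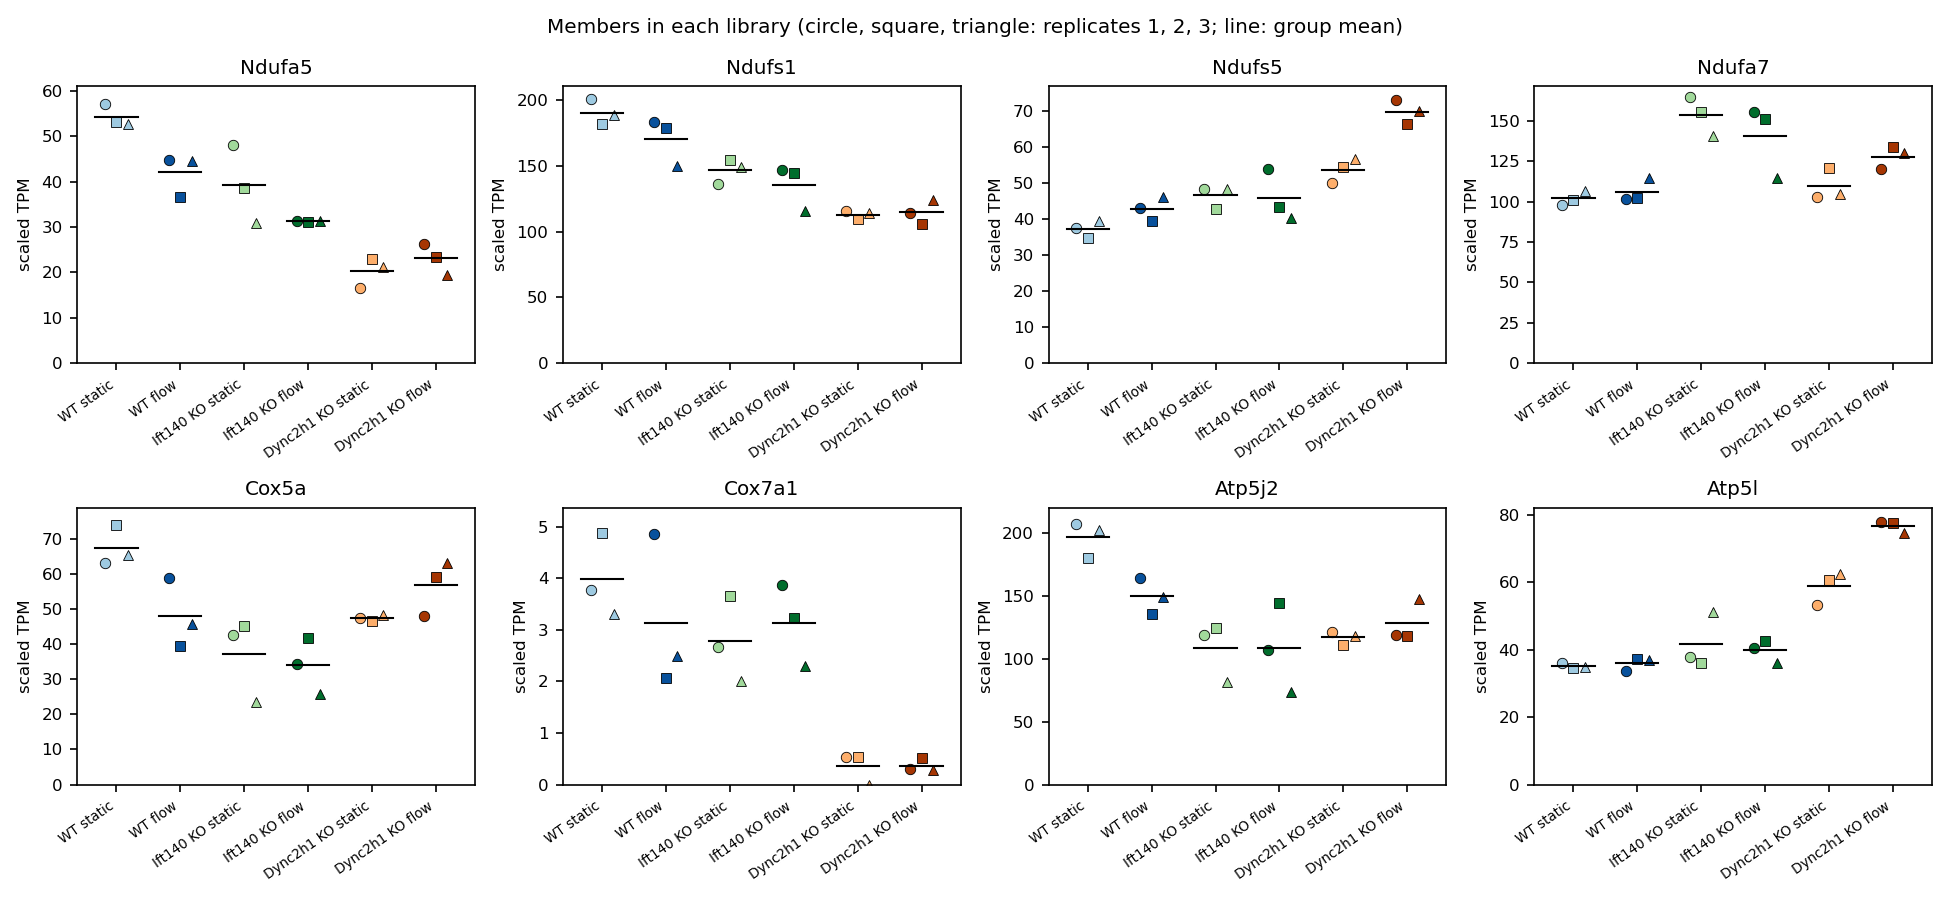
Scaled TPM of 8 members in each library, by group; circles, squares and triangles are replicates 1, 2 and 3 and the line is the group mean. Ndufa5 and Ndufs1 are lowest in the Dync2h1 knockout, Ndufs5 has its highest group means there, Ndufa7 is highest in Ift140 knockout static cells, Cox7a1 is near 0 in the Dync2h1 knockout, and Atp5l rises from about 35 TPM in wild-type static cells to 74.7 to 77.7 in Dync2h1 knockout flow cells.

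Many members have near-identical copies elsewhere in the genome, and how reads were shared among them sets the level of a single row. For 18 members, another gene shares at least 30% of its 31-base stretches with the member, 30 such genes in all, and 20 members could be summed with copies or with pseudogenes named after them. The copies of Cox7c alone averaged 288.9 TPM in sum beside 74.2 for Cox7c itself, those of Atp5l 113.2 beside 48.0, those of Cox5b 228.6 beside 98.3 and those of Atp5g2 207.2 beside 12.1. In the Ift140 knockout Atp5o, Atp5h and Uqcr11 lost their call when summed, at -0.22 (adjusted p = 0.0642), -0.18 (adjusted p = 0.24) and -0.14 (adjusted p = 0.279), while Atp5j, not called alone, was called lower (-0.38, adjusted p = 0.0129), and Cox7a2l and Ndufs5 kept their calls. In the Dync2h1 knockout Atp5l (0.37, adjusted p = 0.0115), Cox5b (-0.23, adjusted p = 0.0264), Cox7c (0.32, adjusted p = 0.0428) and Ndufs5 (0.40, adjusted p = 0.0014) kept their call, with a smaller size for each than alone. Not called alone but called there when summed were Atp5f1 (0.25, adjusted p = 0.0282), Cox7a2l (0.25, adjusted p = 0.015), Ndufa12 (0.30, adjusted p = 0.0177) and Ndufs3 (0.29, adjusted p = 0.0174), all higher, and Atp5g2 (-0.23, adjusted p = 0.0424), lower. The rows of these genes are therefore uncertain in size. Ndufa5, Ndufs1, Ndufa7, Ndufv3, Cox5a, Cox7a1 and Atp5j2 are not among the 20.

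**Figure D5:**
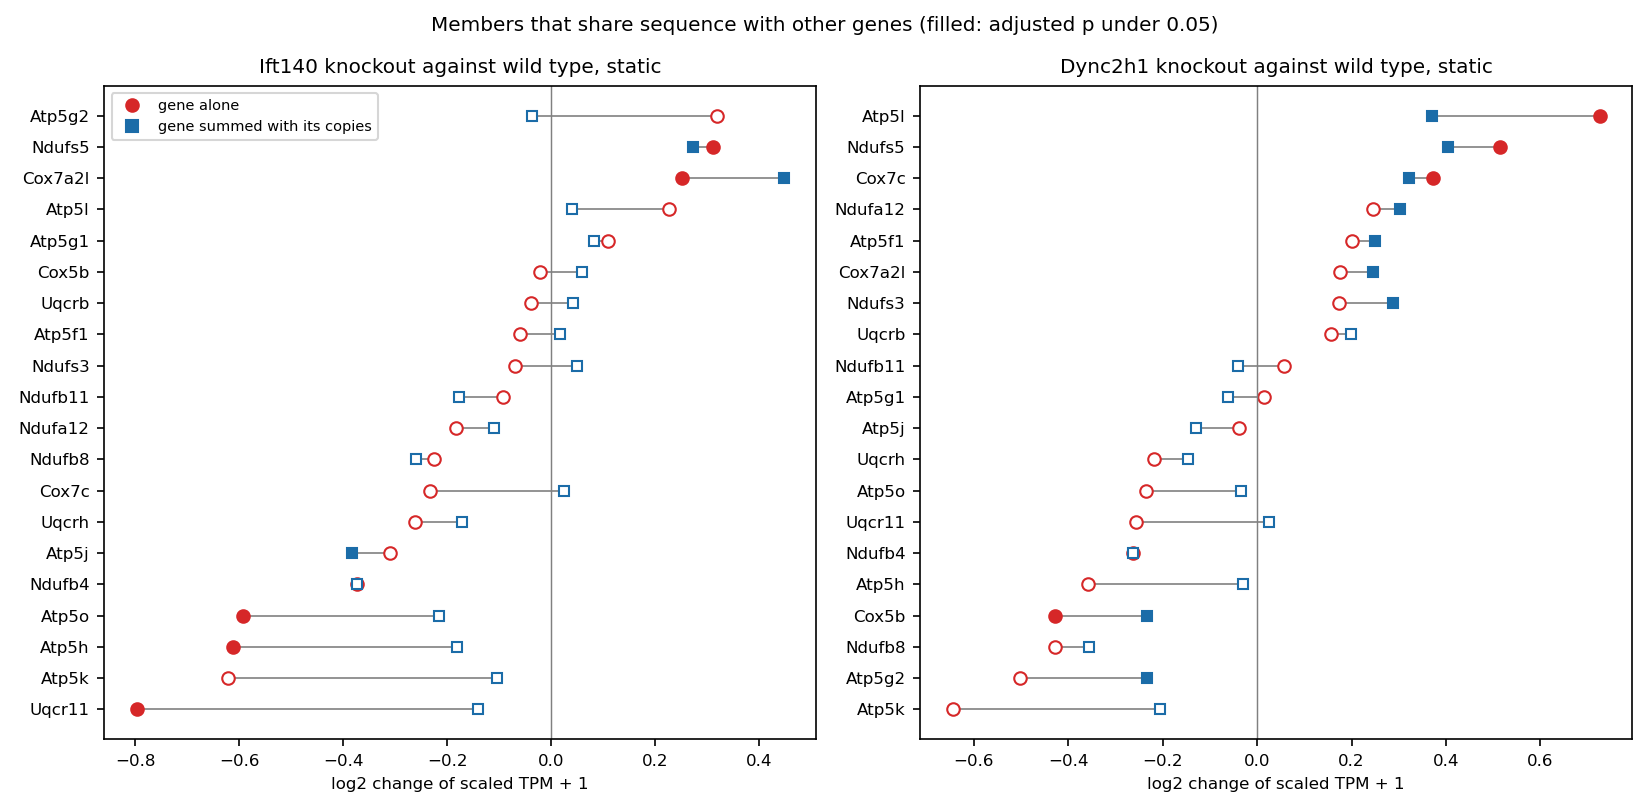
Change in log2(scaled TPM + 1) of the 20 members that have sequence copies, for the member alone and for its sum with the copies, in both static comparisons with wild type; filled points passed at adjusted p under 0.05. Atp5o, Atp5h and Uqcr11 move toward 0 when summed in the Ift140 knockout, and Atp5l stays above 0 in the Dync2h1 knockout (0.73 alone, 0.37 summed).

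The second question was whether shear for 3 h changed the members within each line. It changed few of them. In wild-type cells 0 members were higher and 1 was lower, where among all genes 10.2% were higher and 10.3% lower (20.5% in all). In Ift140 knockout cells 0 were higher and 4 lower, against 9.21% and 8.27% of all genes (17.5% in all). In Dync2h1 knockout cells 6 were higher and 0 lower, against 10.8% and 8.15% of all genes (19% in all). Members are more abundant than most genes, and among the 3669 genes averaging at least 50 TPM 26.0%, 21.6% and 26.1% were called in the same 3 comparisons. At an unadjusted p under 0.05, 8, 9 and 15 members passed. The 95% interval of the change lay within 1.5-fold in either direction for 59, 65 and 59 of the 78 members, and for 75.6%, 77.8% and 75.0% of genes averaging at least 50 TPM. Libraries did not overlap for 18, 10 and 29 of the 78 members, against 40%, 27% and 41.1% of all genes.

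The median member changed by -0.075 with flow in wild-type cells, by -0.07 in Ift140 knockout cells and by 0.125 in Dync2h1 knockout cells. Of 78 members, 59 lay below 0 in wild-type cells, 58 lay below 0 in Ift140 knockout cells and 63 lay above 0 in Dync2h1 knockout cells. Medians of all genes were -0.014, 0.006 and 0.015. In Ift140 knockout cells Ndufc2 (-0.26, adjusted p = 0.0302), Ndufa6 (-0.27, adjusted p = 0.0349) and Ndufa13 (-0.21, adjusted p = 0.0458), all complex I, and Atp5sl (-0.58, adjusted p = 0.0489) were lower in flow libraries, all without overlap. Leaving out replicate 3 of the libraries labelled Ift140 knockout flow, whose Ift140 level goes against its label, left 0 of the 4 called. Leaving out any other library of that comparison left 1 to 6 members called. Of all genes, 16.4% were called without flow replicate 3 and 12.9% to 17.9% without another library.

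The 6 members that rose with flow in Dync2h1 knockout cells were 4 genes of complex I and 2 of complex V. Ndufb7 (chr8:83566671-83571626), of the membrane arm, measured 78.1, 91.6 and 99.8 TPM in static and 140, 135 and 125 in flow libraries (0.57, SE 0.14, adjusted p = 0.0103). Atp5b (chr10:128083273-128090391) measured 1310, 1425 and 1491 TPM against 1802, 1808 and 1677 (0.32, adjusted p = 0.0205). The Atp5b call was lost in 6 of 15 alternatives, and the change was 0.09 (adjusted p = 0.752) with quantile normalisation. Atp5l measured 53.3, 60.7 and 62.3 TPM against 77.7, 77.5 and 74.7 (0.38, adjusted p = 0.0217), and was not called when summed with its copies (0.19, adjusted p = 0.203). The others were Ndufa8 (0.38, adjusted p = 0.0111), Ndufs5 (0.37, adjusted p = 0.0151) and Ndufs6 (0.43, adjusted p = 0.0199), and no static library of any of the 6 reached its flow libraries. On the TPM as deposited, without scaling between libraries, none of the 6 was called, with Ndufb7 closest at 0.45 (adjusted p = 0.056), and the median member changed by 0.01. That setting moved the median of all genes from 0.015 to -0.08 and the calls over all genes from 1810 higher and 1363 lower to 830 higher and 1761 lower. It called Ndufv3 lower (-0.44, adjusted p = 0.0249), which was at -0.32 (adjusted p = 0.161) with scaling. The count of 6 became 0 without Dync2h1 knockout static replicate 1, 2 without flow replicate 1 and 3 without flow replicate 2 of that line. These settings called 13.3%, 13.2% and 14.4% of all genes, as against 19%.

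The third question was whether the response to flow differed between a knockout and wild type, tested as the difference of the 2 responses. No member passed in either line by limma, where 0.227% of all genes passed for the Ift140 knockout and 0.485% for the Dync2h1 knockout. At an unadjusted p under 0.05, 1 member passed for the Ift140 knockout (Atp5s, adjusted p = 0.596) and 13 for the Dync2h1 knockout. Those 13 were all higher in the Dync2h1 knockout, the smallest adjusted p being 0.102 for Ndufa8 (0.55, SE 0.13). The median difference over members was 0.19 for the Dync2h1 knockout, with 70 of 78 above 0, and -0.01 for the Ift140 knockout, against 0.025 and 0.015 over all genes. On the TPM as deposited the median for the Dync2h1 knockout was 0.06, and that of all genes -0.09. Ndufa4l2, the low isoform known to be induced by low oxygen, measured 0.146, 0.0387 and 0.108 TPM in wild-type static libraries and 2.50, 0.515 and 0.595 in flow libraries, a change that did not pass (0.89, adjusted p = 0.085). In Dync2h1 knockout cells it went from 0.382, 0.182 and 0.372 to 0.528, 1.52 and 2.99 TPM (0.93, adjusted p = 0.0777). All 5 libraries with Ndufa4l2 at 1 TPM or more are flow libraries. It is a member only through flow, so its flow tests are not independent of the level rule. At this level the value also depends on the setting. In wild-type cells the Ndufa4l2 change ran from 0.27 (5 added before the log) to 2.43 (0.1 added, called at adjusted p = 0.0217), and in Dync2h1 knockout cells from 0.31 to 1.87 with the same additions, with a call in the latter only without Dync2h1 knockout flow replicate 1 (1.28, adjusted p = 0.0239).

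Genes that work with the members were taken from lists of named genes. Of the 5 measured subunits outside the name rule, Cyc1, the cytochrome c1 of complex III, was higher in both knockouts. It measured 100.9, 94.0 and 87.4 TPM in wild-type static cells, 125.9, 128.9 and 152.3 in the Ift140 knockout (0.52, adjusted p = 0.000893) and 149.4, 161.9 and 157.5 in the Dync2h1 knockout (0.73, adjusted p = 2.18e-05). Atpif1, the inhibitor of ATP synthase, rose by 0.26 in the Dync2h1 knockout (adjusted p = 0.038). Of 12 measured genes of mitochondrial DNA, mt-Nd5 fell by 0.52 in Dync2h1 knockout static cells (adjusted p = 0.0116), from 26.8, 31.2 and 25.7 TPM to 19.4, 19.95 and 17.98. With flow in that line, mt-Atp8 fell by 0.61 (adjusted p = 0.0476), from 107.6, 113.0 and 103.6 TPM to 67.8, 69.0 and 73.9. The 13 genes of mitochondrial DNA in the files summed to 1911 ± 309.3 TPM in wild-type static, 1835 ± 169.8 in Dync2h1 knockout static and 1428 ± 80.4 in Dync2h1 knockout flow libraries. The row of mt-Co2 is listed at 0 in most libraries, although every cell uses that gene, so its 2 calls (higher in static and lower with flow in the Ift140 knockout) are not read as changes. Over the 12 genes, changes with flow ran from -3.784 to 4.132 in the Ift140 knockout and from -0.615 to 1.632 in the Dync2h1 knockout. In each line 1 of the 12 was called. The rows of mt-Nd5 and mt-Atp8 are therefore also uncertain, and they are not set against the nuclear genes.

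Assembly factors, which build the complexes without staying in them, are set against the 20.5%, 17.5% and 19% of all genes called with flow in wild-type, Ift140 knockout and Dync2h1 knockout cells. In wild-type cells 4 of 16 factors of complex I were lower (25%), Timmdc1 among them at -0.42 (adjusted p = 0.00776), and in complex IV 1 of 25 was higher (Sco1, a copper chaperone, 0.70, adjusted p = 0.000338) and 3 lower (16% in all). Cox15, which makes the heme of complex IV, measured 40.0, 43.3 and 44.7 TPM in static and 29.97, 29.5 and 28.9 in flow libraries (-0.52, adjusted p = 0.00102). Sdhaf4, which binds the catalytic subunit of complex II before assembly, measured 28.6, 25.9 and 24.6 TPM against 15.1, 16.9 and 15.1 (-0.71, adjusted p = 0.0201). It was also lower in Dync2h1 knockout static cells, at 12.6, 13.1 and 15.0 TPM (-0.91, adjusted p = 0.00315), while Higd1a, a small protein of complex IV, rose there by 1.09 (adjusted p = 1.32e-05). In Ift140 knockout cells with flow 8 of 25 complex IV factors and 3 of 4 complex II factors were lower. In Dync2h1 knockout cells with flow 1 of 16 complex I factors was higher (Ndufaf4) and 1 of 25 complex IV factors was higher and 2 lower. Whether factors and subunits differed in how often they moved was not tested.

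Among 16 regulators of mitochondrial genes, 2 were higher and 4 lower with flow in wild-type cells, with a median change of 0.17 and 12 of 16 above 0, where 20.5% of all genes were called. Ppargc1a, a coactivator of the nuclear respiratory factors, was the call with the smallest p among them. It measured 1.73, 1.05 and 1.26 TPM in wild-type static libraries and 0.0494, 0.0891 and 0.0892 in flow libraries (-1.12, adjusted p = 0.000114). It was also lower in both knockouts without flow, at 0.244, 0.0587 and 0.0531 TPM in the Ift140 knockout (-1.06, adjusted p = 0.000244) and 0.159, 0.445 and 0.0651 in the Dync2h1 knockout (-0.94, adjusted p = 0.000316). Among the libraries compared here, only the 3 wild-type static ones reached the 1 TPM of the level rule. These calls of Ppargc1a are therefore not independent of that rule, and all 3 use the same wild-type static libraries. Esrra, a receptor that works with it, rose by 0.67 in the Dync2h1 knockout (adjusted p = 0.000153), and Tfb1m, a methylase of the mitochondrial ribosomal RNA, fell by 0.84 there (adjusted p = 0.00246). The members called in the same wild-type flow comparison numbered 1 of 78. Of 22 carriers and exchangers, 1 was higher and 3 lower with flow in wild-type cells, with Coq8a, of ubiquinone synthesis, at -1.45 (adjusted p = 0.00102). Slc25a5, the ADP and ATP exchanger, rose by 0.53 in the Dync2h1 knockout (adjusted p = 0.00017), and Etfa, which feeds electrons from fat oxidation, fell by 0.83 in the Ift140 knockout (adjusted p = 0.0022) and by 0.73 in the Dync2h1 knockout (adjusted p = 0.00307).

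Neighbouring gene sets gave a scale for these counts. Of all genes, 18.1% were called in the static Ift140 comparison, 27.6% in the static Dync2h1 comparison and 19% with flow in the Dync2h1 knockout. Of 17 citrate cycle genes 1 was higher and 5 lower in the Ift140 knockout, and 1 higher and 4 lower in the Dync2h1 knockout, with Cs, citrate synthase, up by 0.46 (adjusted p = 0.00167) in the first and Idh2 at -0.46 (adjusted p = 0.000539) in the second. Of 78 mitochondrial ribosome genes 6 were higher and 3 lower in the Ift140 knockout and 5 higher and 3 lower in the Dync2h1 knockout. Of 85 cytosolic ribosome genes, which also have many copies, 30 were higher and 3 lower in Dync2h1 knockout static cells and 12 higher and 0 lower with flow in that line, where their summed TPM went from 25920 to 30420. In the Ift140 knockout 13 were higher and 16 lower. Of 9 genes known to rise with low oxygen, 4 were lower and 0 higher with flow in wild-type cells and 7 lower and 0 higher in each knockout, where 20.5%, 17.5% and 19% of all genes were called. In static cells 4 of them were higher and 1 lower in each knockout, beside 18.1% (Ift140) and 27.6% (Dync2h1) of all genes. Whether these sets take part in the members' changes was not tested.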

How the data were processed

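The authors deposited a TPM table per library, made with RSEM 1.2.31 and Bowtie2 2.1.0 against mm10 (GRCm38.p5), per the submitters' processing notes. Each deposited column opens with a total row, which doubles its sum, so the unit was recorded as a score, and that row was left out. TPM keeps no depth.

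Libraries were grouped by their labels and scaled by a trimmed mean of log ratios (30% of ratios and 5% of levels trimmed). Genes with at least 1 TPM in 3 libraries were tested with limma 3.58.1 (R 4.3.3) on log2(scaled TPM + 1), with 6 group means, a mean-variance trend and Benjamini-Hochberg adjustment over 16718 genes; a call is an adjusted p under 0.05. The procedure was tested on simulated data. Members and lists were chosen with earlier results of these data known. Named are, per comparison, up to 6 members per direction and up to 3 genes per other list with the smallest p, the most and least abundant member of each complex, isoform pairs, members near the 1 TPM rule and genes of mitochondrial DNA. Coordinates are from GENCODE vM21. Alternatives changed scaling, filter, pseudocount, trend, libraries in the fit and a replicate block. Replicate numbers did not pair the libraries. The values of 1 member are not reported here.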

Additional observations from a re-analysis of the deposited data

Results flagged for a closer look

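No member passed limma's test of a difference between lines in the response to flow, and 2 of the 9 genes known to rise with low oxygen did, both for the Dync2h1 knockout against wild type. Ankrd37 measured 58.1, 47.1 and 46.4 TPM in wild-type static and 5.90, 4.93 and 5.22 in wild-type flow libraries, against 75.6, 82.3 and 79.8 and 3.63, 4.59 and 4.47 in the Dync2h1 knockout. Its response was -0.93 log2 units further down in the knockout (SE 0.15, adjusted p = 0.00737). Egln3 measured 7.16, 6.79 and 6.18 and 3.89, 4.12 and 4.21 TPM in wild-type cells, against 2.67, 3.20 and 3.11 and 0.146, 0.235 and 0.203 in the Dync2h1 knockout, a difference of -1.14 (SE 0.16, adjusted p = 0.00235).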

How the results depend on the processing

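No called change of a named member reversed its sign in the alternatives run. For flow in wild-type cells the count of called members was 1. It became 0 with TPM as deposited, 3 with quantile normalisation, 0 with no filter on low values and 2 with a pseudocount of 0.1. It became 7 when the fit held just the groups compared, 0 with no mean-variance trend and 0 with the replicate block. The shares of all genes called were, in this order, 16.4%, 20.4%, 8.72%, 20.2%, 21.3%, 20.3% and 19.2%, as against 20.5%. For flow in the Ift140 knockout the count of members was 4. It became 7 with quantile normalisation, 1 with no filter, 0 with only the groups compared, 1 with no trend and 1 with the replicate block. Without both libraries labelled Ift140 knockout replicate 3 it was 0. The shares of all genes were, in this order, 17.3%, 7.26%, 3.61%, 17.1%, 16.1% and 15.3%, as against 17.5%. For flow in the Dync2h1 knockout the count of members was 6. It became 1 with TPM as deposited, 3 with quantile normalisation and 17 with only the groups compared. The shares of all genes were, in this order, 15.5%, 16.6% and 21.6%, as against 19%. The static counts were 18 (Ift140 knockout) and 19 (Dync2h1 knockout). They became 11 with no filter in the former and 34 when fitted alone in the latter. With no filter 7.51% of all genes were called in the Ift140 comparison (18.1% in the main fit). Fitted alone, 32% were called in the Dync2h1 comparison (27.6% in the main fit). The static Ift140 count was 21 without both libraries labelled replicate 3, where 19.1% of all genes were called. That alternative was chosen after seeing the data, as was summing copies, which gave 16 and 24 (18% and 27.7% of all genes). For the difference in flow response the Dync2h1 count was 0 and became 1 when just those groups were fitted. That fit called 0.909% of all genes, as against 0.485%. Leaving out single libraries gave 0 to 1, 0 to 6 and 0 to 7 members for flow in the 3 lines. It gave 9 to 13 and 14 to 16 in static cells, and 0 to 1 for the Dync2h1 difference. The shares of all genes were 14.9% to 17.1%, 12.9% to 17.9% and 13.2% to 15.2% with flow. They were 12.3% to 15.2% and 21.3% to 23% in static cells, and 0.251% to 0.353% for the Dync2h1 difference. The cause of these moves was not tested. Same-numbered libraries correlated by -0.04 to 0.104, so the numbers do not pair the libraries. With the replicate block the other counts were 6, 17, 18, 0 and 0. The shares of all genes there were 17.5%, 16.9%, 26.4%, 0.132% and 0.347%.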
